A study of Mus musculus with 41 samples.

Results

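Lyz2, Chil3, Pglyrp1, Fcer1g, Ngp, S100a8, S100a9, Camp and Tyrobp are 9 genes best known from granulocytes, monocytes and macrophages, and they were measured here in thymic stroma that had been sorted to leave leukocytes out. They were taken by name from the probe annotation of the array, which gave 13 probes for them out of 20825 probes with 1 listed gene, and 9 genes out of 13283. The genes were chosen with earlier results of these data known, so the shares of all probes given beside them serve as description. Chil3 had 3 probes, Lyz2 and Pglyrp1 had 2 each, and the other genes had 1. Tyrobp had no value on the TEC arrays, so that 12 probes of 8 genes were read in TEC and all 13 probes in nonTEC.

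RNA came from thymi of male C57Bl/6 mice and was hybridised to 41 Illumina arrays in 14 groups, to follow gene changes with age and after castration. Thymic epithelial cells (TEC, CD45- EpCAM+) gave 24 arrays in 8 groups of 3, and stromal cells that are not epithelial (nonTEC, CD45- EpCAM-) gave 17 arrays in 6 groups. The groups of TEC were castrated and sham-castrated mice on days 4, 7 and 20 after surgery, unoperated middle-aged mice, and unoperated young mice. The groups of nonTEC were castrated and sham-castrated mice on days 4 and 7, unoperated middle-aged mice, and unoperated young mice, with 3 arrays each except sham day 7 with 2. Young mice were 5 to 6 weeks old, and all other mice, operated or not, were 9 to 12 months old. The labels name no transgene and do not say whether arrays of a group came from separate or pooled animals, and p-values therefore speak to the variation among the arrays at hand, which may be technical. Values are normalized log2 intensities as deposited, and the number of arrays limits the precision. Differences are log2 values ± SE from limma, called at an adjusted p under 0.05 (Benjamini-Hochberg over all probes of the fit), and group values are means ± SD.

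As background, neutrophils build their granules in a fixed order as they mature in the bone marrow, and each granule protein is transcribed in its own stage. Mpo, Elane, Prtn3 and Ctsg, the enzymes of the first (azurophil) granules, are transcribed in promyelocytes. The genes of the later granules follow: Ngp encodes a cystatin-like granule protein, Camp the antimicrobial peptide cathelicidin, and Pglyrp1 a protein that binds bacterial peptidoglycan. S100a8 and S100a9 encode the partners of calprotectin, a metal-binding complex that fills the neutrophil cytosol and is also known from stressed epithelium. Lyz2 is the lysozyme of macrophages and neutrophils, and Chil3 (Ym1) is a chitinase-like lectin of macrophages and immature neutrophils. Fcer1g and Tyrobp are membrane adaptors that carry the signals of Fc receptors, Trem receptors and related receptors of myeloid cells. Medullary TEC are known for transcribing many genes of other tissues.

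Most probes of the 9 genes went up and down together across the nonTEC arrays, among them those of Ngp, Camp, S100a8 and S100a9. In TEC, Ngp went less closely with S100a8 and Camp than in nonTEC, but over a narrower range. It lay between 4.35 and 6.17 in TEC, at or below percentile 42.1 of all TEC values, and between 4.52 and 10.55 in nonTEC. The promoters of these 4 genes are printed beside these patterns, and a link between sequence and pattern was not tested. They are RefSeq sequences of GRCm38.p6, read 5′ to 3′ on the strand of the gene in a window that runs from upstream of its start to shortly after it, and 8 of the 9 genes had one. Capitals mark letters that match TTNNGCAA, a form of the site of C/EBP factors, or GAGGAAGT, a form of the site of PU.1, either searched on both strands. C/EBP and PU.1 are the transcription factors best known from granulocyte and macrophage genes.
Ngp: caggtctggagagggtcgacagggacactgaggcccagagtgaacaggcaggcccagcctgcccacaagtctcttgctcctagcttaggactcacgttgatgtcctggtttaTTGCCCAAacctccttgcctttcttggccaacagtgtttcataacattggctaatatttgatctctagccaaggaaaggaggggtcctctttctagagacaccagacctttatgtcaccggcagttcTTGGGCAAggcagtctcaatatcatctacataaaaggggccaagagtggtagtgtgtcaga
Camp: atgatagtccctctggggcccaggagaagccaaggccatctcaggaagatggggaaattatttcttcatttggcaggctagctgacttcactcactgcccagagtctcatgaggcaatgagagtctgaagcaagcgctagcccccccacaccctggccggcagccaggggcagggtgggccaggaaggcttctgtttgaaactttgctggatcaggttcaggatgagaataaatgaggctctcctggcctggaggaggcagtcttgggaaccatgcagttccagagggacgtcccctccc
S100a8: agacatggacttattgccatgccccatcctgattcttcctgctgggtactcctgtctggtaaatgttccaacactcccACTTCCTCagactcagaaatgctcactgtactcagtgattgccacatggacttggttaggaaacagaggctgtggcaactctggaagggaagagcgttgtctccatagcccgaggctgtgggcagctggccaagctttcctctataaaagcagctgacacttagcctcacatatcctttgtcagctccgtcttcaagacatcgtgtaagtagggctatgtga
S100a9: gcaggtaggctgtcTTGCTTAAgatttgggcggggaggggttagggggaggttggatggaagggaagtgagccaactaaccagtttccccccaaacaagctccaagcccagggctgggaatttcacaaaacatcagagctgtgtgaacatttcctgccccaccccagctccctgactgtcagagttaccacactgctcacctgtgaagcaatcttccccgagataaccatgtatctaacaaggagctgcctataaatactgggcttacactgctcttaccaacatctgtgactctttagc
The windows lie at chr9:110419558-110419857 (plus strand) for Ngp, chr9:109849407-109849706 (minus strand) for Camp, chr3:90668821-90669120 (plus strand) for S100a8 and chr3:90695672-90695971 (minus strand) for S100a9. Ngp held 2 matches to TTNNGCAA, starting 138 and 11 bases before the gene start, and S100a9 held 1, starting 236 bases before it. S100a8 held the match to GAGGAAGT, on the opposite strand, 172 bases before the gene start. TTNNGCAA occurred in 10.8% of all 32851 promoters of this length and in 2 of the 8 promoters of these genes, and GAGGAAGT in 3.20% of all promoters and in 1 of the 8. The 2 motifs share no letters in these windows. These are matches of letters only, and the windows of Camp, Lyz2, Chil3, Pglyrp1 and Fcer1g held neither.

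The labelled fractions were checked on single probes before the genes were compared. Krt8, a keratin of simple epithelia, lay between 12.73 and 13.65 on TEC arrays and between 7.02 and 10.74 on nonTEC arrays. Pdgfra, a fibroblast receptor, lay between 4.78 and 9.11 on TEC arrays and between 12.16 and 13.32 on nonTEC arrays. Ptprc, which encodes CD45, was measured in nonTEC alone and lay between 4.38 and 5.73 there, where the lower quartile of all values was 5.32. On the same arrays the leukocyte gene Coro1a lay between 8.62 and 12.14 on ILMN_2714796. The thymocyte gene Cd3e lay between 8.04 and 11.47 on ILMN_1238847, and the other probes of both were lower. Csf1r and Itgb2 were low, as given below, so Ptprc alone does not show that leukocyte RNA was absent. Some arrays stood apart from the rest of their group on the genes described here. Middle-aged nonTEC array 3 was above the mean of the other arrays of its group on 12 of 13 probes, by a median of 2.04, and young nonTEC array 3 was below on 13 of 13, by a median difference of -1.99. In TEC, middle-aged array 3 was above on 9 of 12 probes (median 1.10) and middle-aged array 2 was above on only 2 (median -1.12). Results that rest on one of these arrays are given below with and without it. In such bulk samples, fewer cells of a type and less RNA per cell cannot be told apart.

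In nonTEC, myeloid and granulocyte transcripts were lower in middle-aged than in young mice for all 9 genes. Of 13 probes, 12 fell and 1 did not pass, against 9.98% of all 18397 probes called lower. The median difference of the 13 probes was -2.56, against 0.02 for all probes. The groups did not overlap for 5 of the 13 probes, all lower in middle-aged mice, as was the case in that direction for 16.2% of all probes. The largest differences were those of Camp (11.7-fold on the linear scale), Pglyrp1, S100a8, S100a9 and Ngp, and the smallest called one was that of Chil3 on probe ILMN_3043036.

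The calprotectin genes went together array by array. S100a8 was at 8.67, 8.02 and 12.54 on middle-aged arrays 1, 2 and 3, against 13.95, 13.53 and 11.69 on young arrays 1, 2 and 3. S100a9 was at 7.31, 7.36 and 11.48 on the middle-aged arrays, against 12.99, 12.50 and 10.57 on the young arrays. For both genes, middle-aged array 3 lay within the range of the young arrays, above young array 3, and the other middle-aged arrays lay below all young arrays. S100a8 fell by 3.31 ± 0.80 (adjusted p = 0.00617, limma) and S100a9 fell by 3.30 ± 0.81 (adjusted p = 0.00711).

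In the granule genes Ngp and Camp the arrays numbered 3 stood apart again. Ngp was at 5.24, 5.12 and 8.98 on the middle-aged arrays, against 10.16, 10.55 and 7.92 on the young arrays. Camp was at 5.06, 4.79 and 9.93 on the middle-aged arrays, against 11.51, 10.95 and 7.96 on the young arrays. Here too middle-aged array 3 was higher than young array 3, so the groups overlapped on 1 pair of arrays. Ngp fell by 3.10 ± 0.71 (adjusted p = 0.00455) and Camp fell by 3.55 ± 0.99 (adjusted p = 0.0154). Without middle-aged array 3 the 12 probes were again called, and the differences were -4.37 for Ngp, -5.21 for Camp, -4.71 for S100a8 and -4.68 for S100a9. Without young array 3 they were -3.91, -4.64, -4.00 and -4.03 for the same genes in that order, and 12 probes were called. Without middle-aged array 1, on the other hand, 7 probes were called. Those lost were S100a9, the 3 Chil3 probes and Camp (-2.78, adjusted p = 0.0995), and Camp and Chil3 on ILMN_3043036 also missed the threshold without middle-aged array 2, young array 1 or young array 2. In a fit of the 6 arrays alone Camp (adjusted p = 0.0773) and the 3 Chil3 probes missed it as well.

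Pglyrp1 gave the smallest p of the 13 probes. Probe ILMN_2592486 was at 4.92, 5.16 and 6.38 on the middle-aged arrays, against 9.43, 9.09 and 8.36 on the young arrays. All middle-aged arrays lay below all young ones, array 3 included, and the gene fell by 3.48 ± 0.33 (adjusted p = 1.41e-06). The other probe of the gene, ILMN_1250599, was between 4.46 and 5.25 on all 17 nonTEC arrays, at or below percentile 23.3 of all nonTEC values. Its difference was 0.01 ± 0.21. This was the probe of the 13 that did not pass.

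Lyz2, Chil3 and both adaptors fell as well. Lyz2 on probe ILMN_1252076 was at 5.62, 7.25 and 8.48 on the middle-aged arrays, against 9.98, 10.01 and 8.55 on the young arrays. The groups did not overlap, and the difference was -2.39 ± 0.48 (adjusted p = 0.00157, and 0.0692 in a fit of all 41 arrays). The other Lyz2 probe, ILMN_2939681, fell by 1.88 ± 0.42 (adjusted p = 0.00397), also without overlap. Fcer1g was at 6.39, 6.72 and 7.44 on the middle-aged arrays, against 9.48, 8.71 and 8.13 on the young arrays, and fell by 1.92 ± 0.30 (adjusted p = 0.000189). Tyrobp was at 4.83, 5.40 and 5.59 on the middle-aged arrays, against 7.56, 7.08 and 6.69 on the young arrays, and fell by 1.84 ± 0.29 (adjusted p = 0.000240). For both adaptors all middle-aged arrays lay below all young ones. Chil3 fell on all 3 of its probes (-2.80 ± 0.69, -2.56 ± 0.64 and -1.63 ± 0.44, adjusted p = 0.00743, 0.00783 and 0.0121). Chil3 on probe ILMN_2712986 was at 4.46, 4.60 and 7.82 on the middle-aged arrays, against 9.50, 9.33 and 6.45 on the young arrays, with the same crossing of the arrays numbered 3 as in Ngp and Camp.

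**Figure D1:**
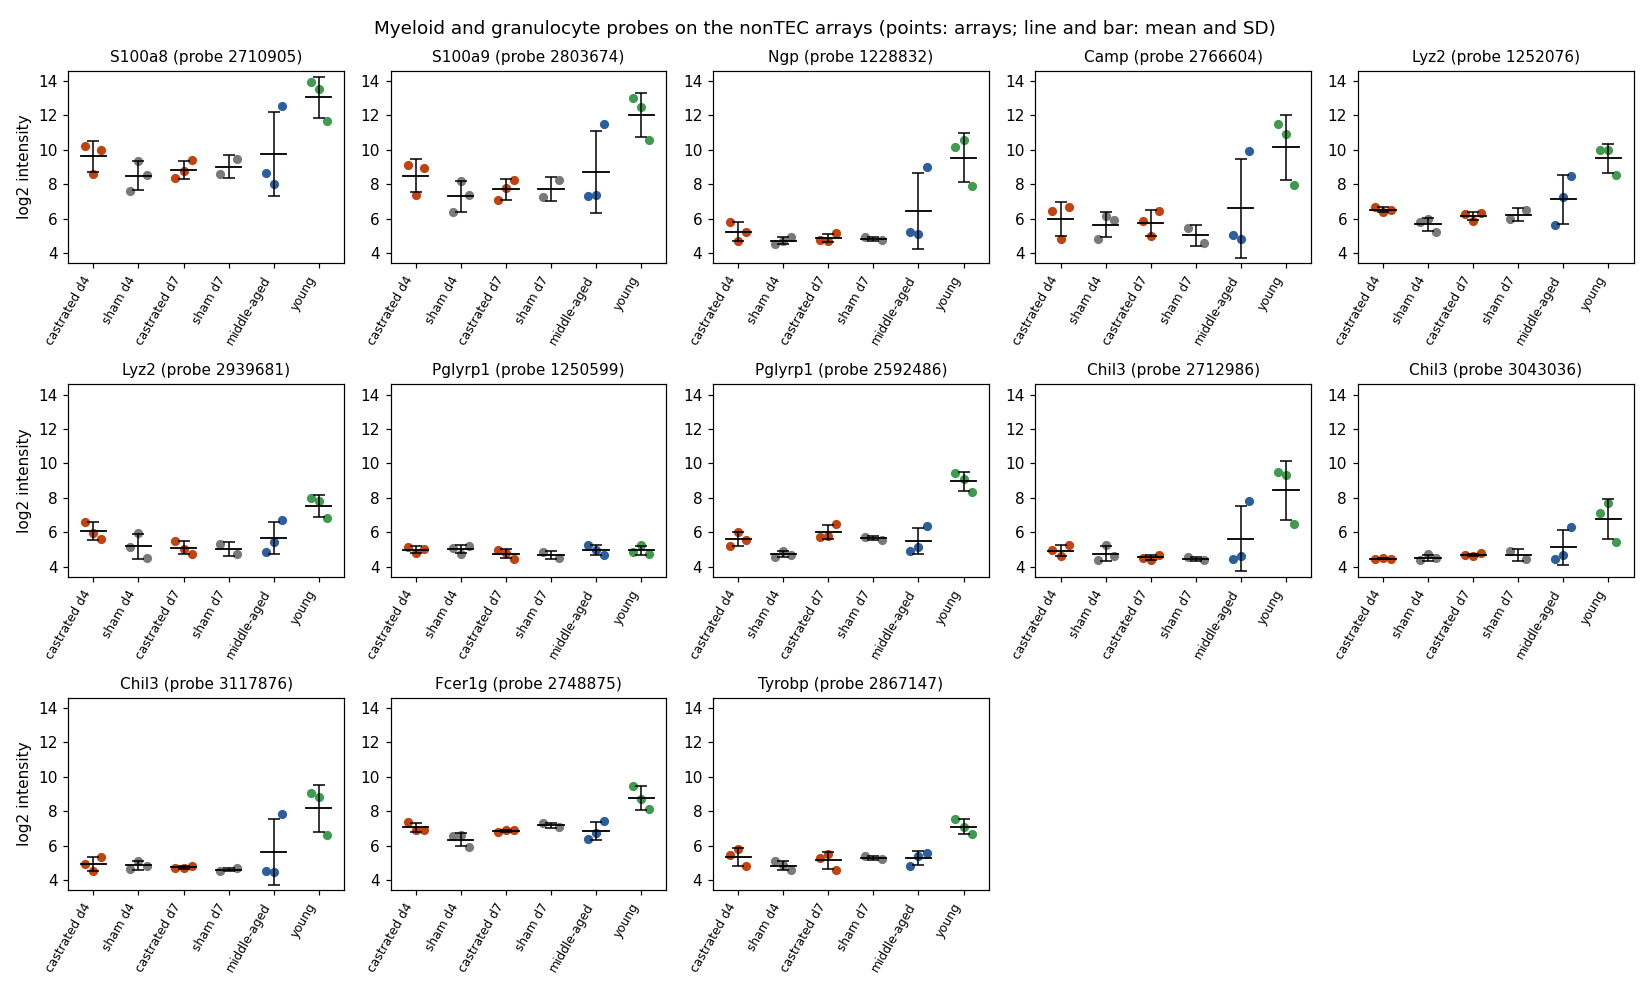
Log2 intensity (y axis) of the 13 probes of the 9 genes on the 17 nonTEC arrays, by group (x axis); points are arrays, the line is the group mean and the bar the SD. The young group mean is highest in every panel but that of Pglyrp1 probe ILMN_1250599, where all arrays lie between 4.46 and 5.25, and middle-aged array 3 stands above the other middle-aged arrays for S100a8, S100a9, Ngp, Camp and Chil3.

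Genes of the same programmes outside the 9 were read from lists of markers. Of 20 probes of neutrophil granule genes, 19 were lower and 1 higher in middle-aged nonTEC, with a median of -1.77. The higher one, named after its value was seen, was Anxa1, the anti-inflammatory annexin. The azurophil granule genes followed the split of the arrays seen in Ngp and Camp. Mpo on probe ILMN_2600421 was at 4.93, 5.09 and 9.49 on the middle-aged arrays, against 13.35, 12.68 and 7.07 on the young arrays, and Elane at 4.99, 5.10 and 8.43 on the middle-aged arrays, against 12.35, 12.15 and 6.04 on the young arrays. For both, middle-aged array 3 lay between the other middle-aged arrays and young arrays 1 and 2, and above young array 3. The lysozyme gene Lyz1 fell on its 3 probes, by 2.45 ± 0.39 on ILMN_2878071. Cebpe, the C/EBP factor of granule genes, fell by 2.05 ± 0.36 on ILMN_3029849 (-1.55 ± 0.38 on the other probe), while Cebpd, another factor of the family, rose by 1.02 ± 0.20 on 1 of its 2 probes (-0.11 ± 0.20 on the other). Of 17 macrophage and monocyte probes 9 fell and 1 rose, with C1qb and C1qc, subunits of the first complement component, down by -1.44 ± 0.19 and -0.95 ± 0.18. Prg2, the major basic protein of eosinophil granules, fell by 2.65 ± 0.33, and Chil1, a chitinase-like relative of Chil3, fell by 3.13 ± 0.20. Chil4, another relative of Chil3, fell by 2.62 ± 0.60. Of 10 probes for receptors and kinases that use Fcer1g or Tyrobp 4 fell, among them Clec7a (-0.89 ± 0.17 on 1 of its 2 probes, -0.32 ± 0.20 on the other) and Fcgr3 (-1.30 ± 0.35). Rac2 and Ncf4 of the phagocyte oxidase fell (-2.47 ± 0.33 and -1.53 ± 0.28). In the other direction, Csf1, the growth factor of macrophages, rose by 1.79 ± 0.16 and Tlr4, a receptor of calprotectin, rose by 0.78 ± 0.18.

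Many markers of other leukocytes were also lower in middle-aged than in young nonTEC, but not all of them followed these genes array by array. Of 13 pan-leukocyte probes 11 fell, of 13 thymocyte probes 10 fell, and of 9 B lineage probes 5 fell and 2 rose. The mean level of the pan-leukocyte list was 6.62 to 7.49 on middle-aged and 8.84 to 9.09 on young nonTEC arrays. The mean level of the neutrophil granule list was 5.90, 6.04 and 7.61 on middle-aged arrays 1, 2 and 3, against 9.56, 9.24 and 7.15 on young arrays 1, 2 and 3. The mean of the thymocyte list was highest on young array 3 (9.18, with 8.30 and 8.42 on the other young arrays), the young array that was lowest for the granule genes. Vpreb3 and Igll1, components of the precursor B cell receptor, had differences of -3.92 ± 0.31 and -3.87 ± 0.36. Csf3r, the receptor of the granulocyte growth factor, was at 4.54 to 5.94, Csf1r, the receptor of Csf1, at 4.57 to 5.62 and the leukocyte integrin gene Itgb2 at 4.82 to 5.59 over all 17 nonTEC arrays, where the median of all values was 6.81. The part of these leukocyte markers in the differences of the 9 genes was not tested.

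Castrated mice, themselves middle-aged, were also below young mice. Against young nonTEC, the mean of castrated mice over days 4 and 7 was lower on 12 of the 13 probes, against 5.70% of all probes called lower. The median difference was -3.17, against -0.00 for all probes, and for 12 probes no castrated array reached the lowest young array, as was the case for 6.09% of all probes. This comparison shares its young arrays with that of ageing, so the values are given side by side and not as a separate finding. Ngp was at 5.80, 4.70 and 5.24 on castrated day 4 arrays and at 4.74, 4.71 and 5.14 on castrated day 7 arrays, against at least 7.92 on young arrays, and the difference was -4.49 ± 0.62 (adjusted p = 6.97e-05). Camp differed by -4.27 ± 0.85 (adjusted p = 0.00258), S100a8 by -3.83 ± 0.69 (adjusted p = 0.00107) and Pglyrp1 on ILMN_2592486 by -3.17 ± 0.29 (adjusted p = 7.19e-07). The 12 calls were kept under every alternative of processing in which the probe was tested. Of the 20 neutrophil granule probes 18 were lower, as were 10 of 13 pan-leukocyte probes, while 1 of 13 thymocyte probes was.

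In nonTEC, no probe of the 9 genes passed the test between castrated and sham mice of the same day. At day 4, limma called 0 of 13, against 3.39% of all probes, and 2 probes had an unadjusted p under 0.05. S100a8 was at 10.25, 8.61 and 9.99 on castrated day 4 arrays, against 7.63, 9.35 and 8.53 on sham day 4 arrays (1.11 ± 0.80, adjusted p = 0.499). The groups overlapped for S100a8. They did not for 3 of the 13 probes, higher in castrated mice, as for 10.1% of all probes in that direction, and Fcer1g, one of the 3, was at 7.08 ± 0.26 on castrated and 6.36 ± 0.39 on sham arrays (0.72 ± 0.30, adjusted p = 0.195). The median difference was 0.53. Markers of other cells rose there, namely 9 of 13 pan-leukocyte probes, 9 of 13 thymocyte probes, and, of the myeloid lists, Rac2 (1.91 ± 0.33), the mast cell protease gene Cpa3 (1.55 ± 0.34, with 1 of its 3 probes not called) and Gfi1, a repressor of granulocyte and lymphoid progenitors (1.36 ± 0.36). At day 7, 0 of 13 probes were called, against 0.299% of all probes, and 0 had an unadjusted p under 0.05 (median difference 0.04). Sham surgery against no surgery gave 0 of 13 as well, against 0.0761% of all probes, with 2 probes at an unadjusted p under 0.05 and a median difference of -0.88. The middle-aged arrays of that comparison include array 3: Ngp was between 4.52 and 4.94 on the 5 sham arrays, below the 5.24, 5.12 and 8.98 of the middle-aged arrays (-1.68 ± 0.64, adjusted p = 0.222).

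In TEC the levels followed no such common pattern. Across the 24 TEC arrays the 66 pairs of probes had a median correlation of 0.15, with 24 pairs below 0, and across the 17 nonTEC arrays the 78 pairs had a median of 0.88, with 5 below 0. These correlations are descriptions, since the arrays of a fraction share their groups and their normalization. Taken around the group means, the medians were 0.13 in TEC and 0.73 in nonTEC. S100a8 and S100a9 stayed close in both fractions, at r = 0.907 in TEC and r = 0.997 in nonTEC. Ngp went with S100a8 at r = 0.21 in TEC and at r = 0.96 in nonTEC, and with Camp at r = 0.37 in TEC and r = 0.96 in nonTEC.

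**Figure D2:**
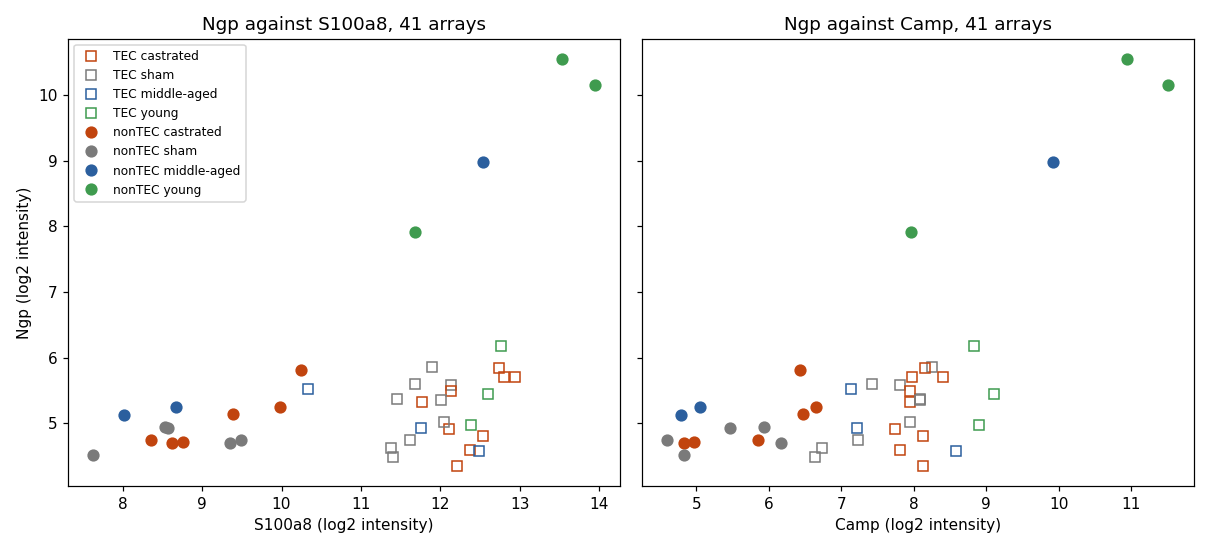
Ngp against S100a8 (left) and against Camp (right), in log2 intensity on both axes, on the 24 TEC arrays (open squares) and the 17 nonTEC arrays (filled circles), coloured by group. The TEC arrays lie flat in Ngp, between 4.35 and 6.17, at S100a8 values between 10.33 and 12.94, and the nonTEC arrays lie along a rising line that ends in the young arrays and middle-aged array 3.

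In TEC, Pglyrp1, Camp, S100a8 and S100a9 were lower in middle-aged than in young mice. Of 12 probes 4 fell and 8 did not pass, against 3.35% of all 18245 probes called lower, and the median difference was -0.92, against 0.04 for all probes. Pglyrp1 on ILMN_2592486 was at 9.54, 9.81 and 10.48 on middle-aged TEC arrays, against 11.56, 10.89 and 11.23 on young TEC arrays, without overlap (-1.28 ± 0.26, adjusted p = 0.00503). Camp was at 7.22, 7.13 and 8.58 on the middle-aged arrays, against 8.83, 9.11 and 8.91 on the young arrays, also without overlap (-1.31 ± 0.29, adjusted p = 0.00763). S100a9 was at 8.73, 6.14 and 9.67 on the middle-aged arrays, against 9.94, 10.11 and 9.94 on the young arrays (-1.82 ± 0.50, adjusted p = 0.0262). S100a8 was at 11.76, 10.33 and 12.49 on the middle-aged arrays, against 12.76, 12.60 and 12.39 on the young arrays (-1.06 ± 0.33, adjusted p = 0.0464). The lowest of both calprotectin values was on middle-aged array 2 and the highest on array 3, which overlapped with young TEC for S100a8.

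Pglyrp1 and Camp kept their calls without any one of the 6 arrays compared. S100a8 and S100a9 lost theirs without any one of the 3 young arrays, which left 2 probes called, and without middle-aged array 2, where they differed by -0.46 and -0.80. Without middle-aged array 3, 6 probes were called, a count given without the share of all probes called. In a fit of the 6 arrays alone 0 of 12 passed, and in a fit of all 41 arrays 1 did, Pglyrp1. Without the TEC arrays that stand apart (middle-aged array 3, castrated day 4 arrays 2 and 3 and sham day 4 array 3, chosen after the data were seen) 7 were called, against 24.3% of all probes, and S100a9 differed by -2.56 and Camp by -1.77. Ngp (-0.52 ± 0.29), Fcer1g (-0.79 ± 0.31) and the 3 Chil3 probes (0.76 ± 0.34, 0.34 ± 0.30 and 0.21 ± 0.49) did not pass, nor did Pglyrp1 on ILMN_1250599 (0.10 ± 0.20). Lyz2 did not pass on either probe. On ILMN_1252076 it was at 9.87, 9.64 and 5.15 on the middle-aged arrays, against 10.94, 10.70 and 10.65 on the young arrays, without overlap (-2.54 ± 1.06, adjusted p = 0.135), and on ILMN_2939681 the difference was -1.22 ± 0.66 (adjusted p = 0.259). Beside them, 6 of 21 neutrophil granule probes fell, and 1 rose: Cd177 (-1.62 ± 0.37) and Mpo (-0.85 ± 0.22, on 1 of its 4 probes) were lower and the lipocalin gene Lcn2 was higher by 1.29 ± 0.27. Of 4 oxidase probes 3 fell, Rac2 by -1.15 ± 0.22, Cyba by -0.66 ± 0.15 and Ncf4 by -0.87 ± 0.20. Of 10 pan-leukocyte probes 4 fell, and of 9 thymocyte probes 0 fell and 1 rose. The mean level of the pan-leukocyte list was 8.49 to 8.81 on middle-aged and 9.52 to 9.86 on young TEC arrays, and its part in the result was not tested.

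At day 20 after castration, S100a9, Fcer1g, S100a8, Camp, Pglyrp1 and Ngp were higher in castrated than in sham TEC. Of 12 probes 6 rose and 6 did not pass, against 8.24% of all probes called higher, and the median difference was 1.19, against -0.05 for all probes. On 10 of the 12 probes the 2 groups did not overlap, against 53.8% of all probes, and 9 of the 10 were higher in castrated mice, against 25.4% of all probes. The other one, lower in castrated mice, was Chil3 on ILMN_2712986. Fcer1g was at 9.25, 9.05 and 9.30 on castrated day 20 arrays, against 7.97, 7.60 and 7.46 on sham day 20 arrays (1.52 ± 0.31, adjusted p = 0.00236). S100a8 was at 12.94, 12.81 and 12.74 on castrated arrays, against 11.62, 11.38 and 11.40 on sham arrays (1.37 ± 0.33, adjusted p = 0.00774), and S100a9 at 10.08, 9.62 and 9.77 on castrated arrays, against 8.23, 8.08 and 8.15 on sham arrays (1.67 ± 0.50, adjusted p = 0.0289). For Fcer1g and both calprotectin genes every castrated array lay above every sham array. Camp was at 8.18 ± 0.21 in castrated and 6.87 ± 0.32 in sham TEC (1.31 ± 0.29, adjusted p = 0.00411), and Pglyrp1 on ILMN_2592486 at 10.40 ± 0.14 in castrated and 9.10 ± 0.20 in sham TEC (1.30 ± 0.26, adjusted p = 0.00230). Ngp was at 5.70, 5.70 and 5.84 on castrated arrays, against 4.75, 4.63 and 4.49 on sham arrays (1.13 ± 0.29, adjusted p = 0.0135), values that lie below the median of all TEC values, 6.68. The Chil3 probes gave -0.51 ± 0.34, 0.47 ± 0.30 and -0.34 ± 0.49, and the Lyz2 probes 1.26 ± 1.06 and 1.09 ± 0.66, and none of these 5 passed.

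The sham arrays of day 20 had the lowest mean of the 8 TEC groups for each of these 6 genes. Camp was at 6.64 to 7.24 on sham day 20 arrays, the lowest of any TEC group, while unoperated middle-aged TEC were at 7.13 to 8.58. Pglyrp1 on ILMN_2592486 was likewise lowest in sham day 20 TEC, at 8.92 to 9.31, against 9.54 to 10.48 in unoperated middle-aged TEC. With unoperated middle-aged TEC as the control 9 of 12 probes were called, against 39.4% of all probes, but of the 6 genes above only S100a8, S100a9 and Fcer1g were among them (Camp 0.53, Pglyrp1 0.46 and Ngp 0.74). With the sham arrays of all days as control 4 probes were called, against 27.4% of all probes, and of the 6 genes S100a8 was among them. S100a9 lost its call without any one of the 6 arrays, and Ngp without castrated array 3 or sham array 3. In a fit of all 41 arrays 2 probes passed, Pglyrp1 and Fcer1g. Without the TEC arrays that stand apart, none of them of day 20, 7 probes were called, against 23.7% of all probes.

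Other myeloid genes were higher in castrated TEC of day 20 as well. Of 21 neutrophil granule probes 9 rose and 2 fell. Mpo rose on 3 of its 4 probes, by 1.47 ± 0.22 on the first of them, and the stefin gene Stfa1 by 1.72 ± 0.36, and Lcn2 fell by 2.05 ± 0.27. Of 15 macrophage and monocyte probes 5 rose and 0 fell, among them the mannose receptor gene Mrc1 (1.44 ± 0.21), C1qb (1.54 ± 0.31) and Adgre1, which encodes F4/80 (1.03 ± 0.26 on 1 of its 2 probes). The eosinophil gene Prg2 rose by 1.24 ± 0.22 and the mast cell protease gene Mcpt4 by 1.33 ± 0.28. The oxidase subunit genes Cyba and Ncf4 rose by 1.04 ± 0.15 and by 1.30 ± 0.20. Tlr4, the endotoxin receptor, fell on both its probes (-1.19 ± 0.25 and -1.12 ± 0.34). Of 10 pan-leukocyte probes 5 rose, of 9 B lineage probes 3 rose, and of 9 thymocyte probes 0 were called. The mean level of the pan-leukocyte list was 9.43 to 9.67 in castrated and 8.46 to 8.66 in sham day 20 TEC, and its part in the result was not tested.

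**Figure D3:**
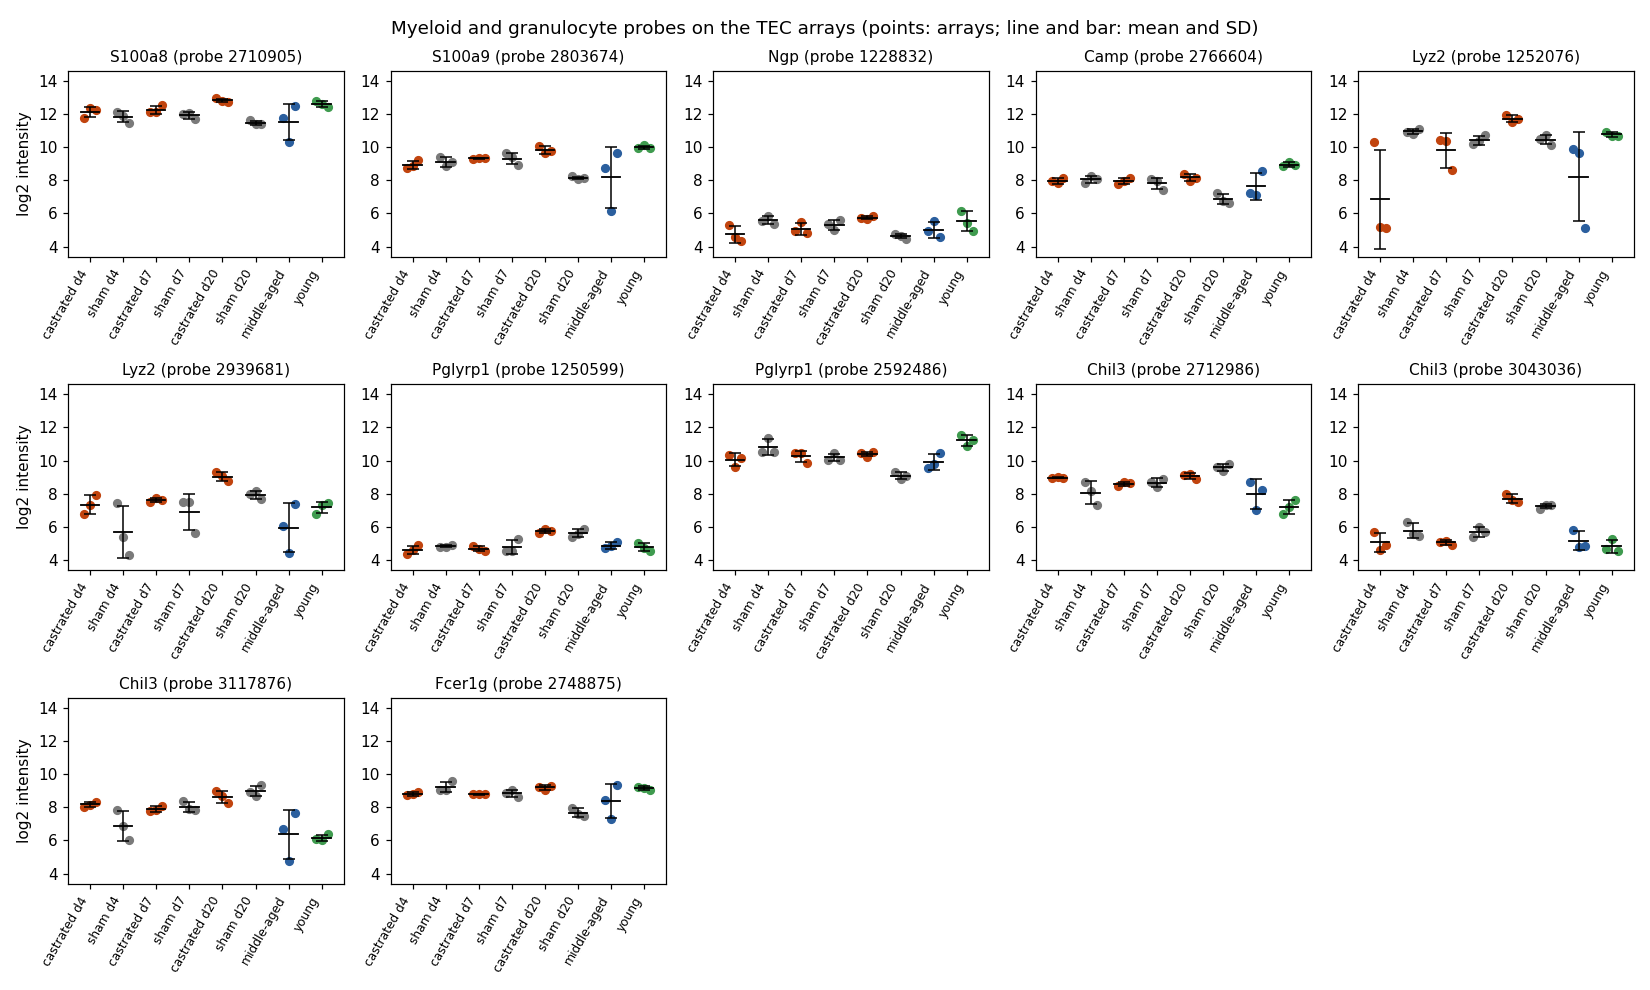
Log2 intensity (y axis) of the 12 probes of 8 genes on the 24 TEC arrays, by group (x axis), drawn as for nonTEC. At day 20 the castrated arrays stand above the sham arrays for S100a8, S100a9, Ngp, Camp, Fcer1g and Pglyrp1 probe ILMN_2592486, and the Lyz2 probes each have single arrays far below the rest.

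Castration at day 4 gave 1 called probe of 12 in TEC, lower, against 0.959% of all probes called lower. It was Lyz2 on ILMN_1252076, at 10.30, 5.18 and 5.11 on castrated day 4 arrays, against 10.93, 10.82 and 11.11 on sham day 4 arrays (-4.09 ± 1.06, adjusted p = 0.0463). Castrated arrays 2 and 3 lay far below and castrated array 1 close to the sham arrays. On the other Lyz2 probe, ILMN_2939681, the sign was opposite: 6.77, 7.33 and 7.96 on castrated arrays, against 7.41, 5.37 and 4.29 on sham arrays (1.66 ± 0.66, adjusted p = 0.137), and here sham arrays 2 and 3 were the low ones. Sham array 3 also stood apart in Cd3e, a chain of the T cell receptor complex, on ILMN_2784580 (10.30, with 5.92 and 6.37 on the other sham day 4 arrays), and the part of this in the result was not tested. Over all 24 TEC arrays ILMN_1252076 was between 8.61 and 11.92 except on those castrated arrays and on middle-aged array 3, which was at 5.15. ILMN_2939681 was low on other arrays, at 4.41 on middle-aged array 2 and 5.65 on sham day 7 array 3. The correlation of the 2 Lyz2 probes was 0.01 over the 24 TEC arrays and 0.90 over the 17 nonTEC arrays. Each went with a probe listed for the paralog Lyz1 instead: ILMN_1252076 with ILMN_1247933 at r = 0.99, and ILMN_2939681 with ILMN_2736867 at r = 0.94. Lyz1 and Lyz2 are near-identical genes, so a probe of one may read the other, and which transcript each probe reads was not tested. Without the TEC arrays that stand apart, castrated array 1 alone is set against sham arrays 1 and 2, and the difference on ILMN_1252076 was -0.57. The castrated arrays left out there are those that lay far below on this probe. When castrated array 2 or 3, or sham array 2 or 3, was left out, 0 of 12 probes were called. Without castrated array 1 it was 4, and without sham array 1 the 1 probe called was another one, higher in castrated TEC. These counts are given without the shares of all probes called. At day 7, limma called 0 of 12 probes in TEC, against 0.0164% of all probes, and 1 probe had an unadjusted p under 0.05 (median difference -0.05).

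**Figure D4:**
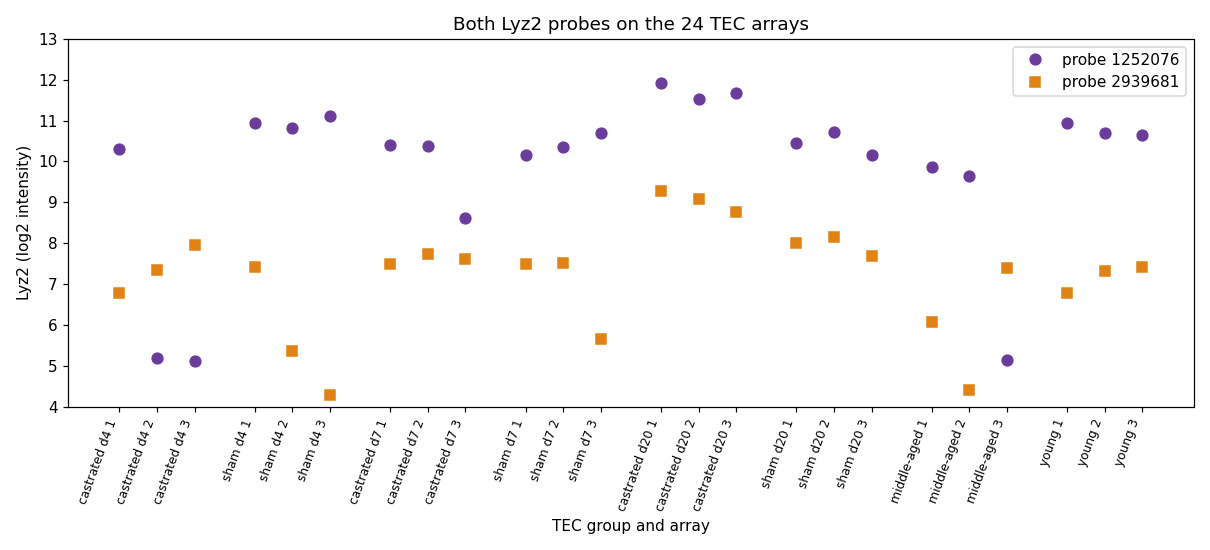
Both probes of Lyz2 on each of the 24 TEC arrays (x axis, by group and array; y axis, log2 intensity). Probe ILMN_1252076 drops to between 5.11 and 5.18 on castrated day 4 arrays 2 and 3 and middle-aged array 3, and probe ILMN_2939681 drops on a different set of arrays, down to 4.29 on sham day 4 array 3.

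Chil3 followed its own course in TEC. Its level over the groups was lowest in young TEC on each probe, and on ILMN_3043036 it was at 7.71 ± 0.25 in castrated and 7.24 ± 0.12 in sham day 20 TEC, against 4.83 ± 0.39 in young TEC. Sham surgery, averaged over days, was higher than no surgery on ILMN_3043036 (1.08 ± 0.25, adjusted p = 0.0310) and ILMN_3117876 (1.58 ± 0.40, adjusted p = 0.0409), which were the 2 of 12 probes called higher, against 1.02% of all probes higher. By day, the sham means on ILMN_3043036 were 5.78 ± 0.45 at day 4, 5.70 ± 0.29 at day 7 and 7.24 ± 0.12 at day 20, against 5.17 ± 0.58 without surgery. The day 20 mean was the farthest from that of unoperated mice, and the arrays of day 20 differ from those of earlier days on many probes, as given with that comparison. The third Chil3 probe, ILMN_2712986, gave 0.80 ± 0.28 (adjusted p = 0.105). Both calls were lost without middle-aged array 2, where ILMN_3117876 was at 4.76, against 6.72 and 7.66 on the other middle-aged arrays. They were also lost without sham day 4 array 1, sham day 20 array 2 or sham day 20 array 3, and 1 call was left without any one array of sham day 7 or without sham day 20 array 1. ILMN_3043036 was lost without middle-aged array 3 as well (adjusted p = 0.0674). Without the TEC arrays that stand apart 6 of 12 were called, against 9.45% of all probes.

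All 6 arrays of day 20, castrated and sham, were compared with those of days 4 and 7. There 6 of 12 probes were higher and 2 lower, but 22.9% of all probes were called higher and 29.8% lower. Day 20 arrays are known by their day alone, and an effect of the day and of array processing on that day cannot be told apart. All 3 Chil3 probes were higher, by 2.07 ± 0.19 on ILMN_3043036 (adjusted p = 2.60e-08), by 1.06 ± 0.30 and by 0.75 ± 0.21, as were both Lyz2 probes (1.57 ± 0.65 and 1.61 ± 0.41, adjusted p = 0.0477 and 0.00236). The first, ILMN_1252076, lost its call in 15 of the 18 fits that left out 1 array. The Pglyrp1 probes disagreed: ILMN_1250599 was higher by 0.96 ± 0.12 and ILMN_2592486 lower by -0.57 ± 0.16 (adjusted p = 1.66e-06 and 0.00529). On ILMN_1250599 the day 20 arrays were between 5.41 and 5.90 and no other TEC array was above 5.29. No TEC array was above percentile 37.3 of all TEC values on this probe. Fcer1g was lower by -0.48 ± 0.19 (adjusted p = 0.0375), a call lost in 9 of the same 18 fits (adjusted p up to 0.0964). For Fcer1g and for Pglyrp1 on ILMN_2592486, castrated and sham arrays of day 20 lay apart. On both probes the sham mean of day 20 was below the mean of days 4 and 7, and the castrated mean was not. Chil4 rose beside Chil3, by 2.03 ± 0.20 and by 1.32 ± 0.15 on its 2 probes.

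**Figure D5:**
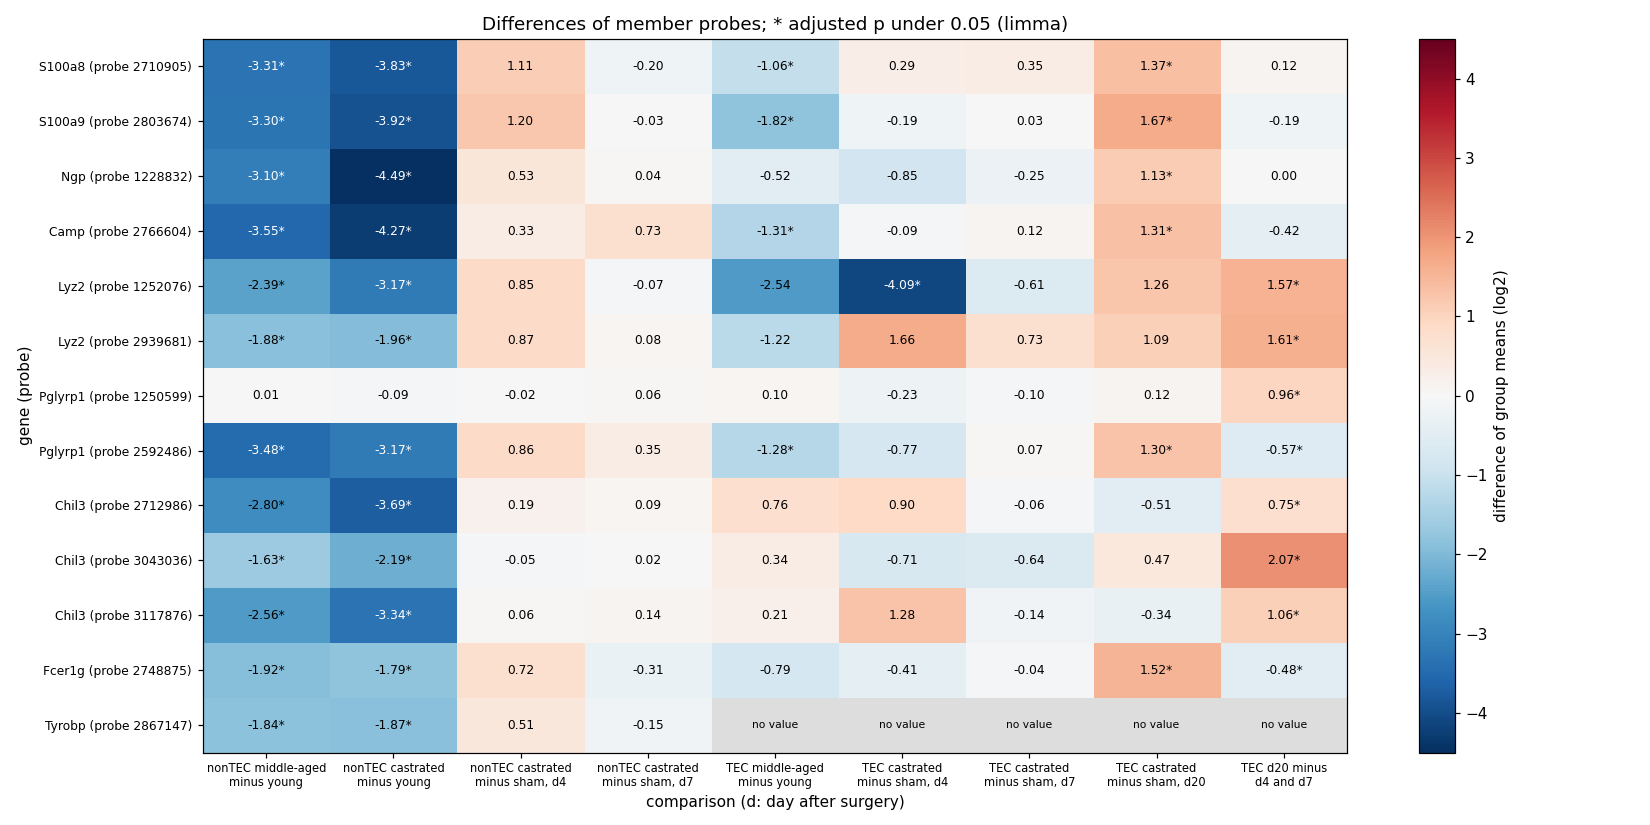
Differences of group means (log2, colour and printed value) of the 13 probes (rows) in 9 comparisons (columns), with an asterisk at an adjusted p under 0.05 in limma. Both comparisons with young nonTEC carry an asterisk in 12 rows, castration against sham in nonTEC has no asterisk, and in TEC the asterisks fall on 4 probes with age and 6 at day 20.

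The ageing differences of the fractions were set against each other in a fit of all 41 arrays. Of 12 probes 3 differed, each with the higher value in TEC, against 4.68% of all 15817 probes higher. Chil3 on ILMN_2712986 differed by 0.76 in TEC and -2.80 in nonTEC between middle-aged and young mice (difference 3.56 ± 0.85, adjusted p = 0.00886), and on ILMN_3043036 by 0.34 in TEC and -1.63 in nonTEC (1.97 ± 0.57, adjusted p = 0.0318). Pglyrp1 on ILMN_2592486 was lower in both, by -1.28 in TEC and by -3.48 in nonTEC (2.19 ± 0.45, adjusted p = 0.00238). Ngp, at -0.52 in TEC and -3.10 in nonTEC, did not pass (2.57 ± 0.84, adjusted p = 0.0595), nor did S100a8 (2.25 ± 0.96, adjusted p = 0.157). The third Chil3 probe, ILMN_3117876, did not pass either. The sham groups include day 20 in TEC but not in nonTEC, and the part of this was not tested. When they stood for middle-aged mice, 10 of 12 probes differed, against 12.9% of all probes. Without nonTEC middle-aged array 3 it was 8, and without nonTEC young array 3 or TEC middle-aged array 2 it was 5. The shares of all probes called in these fits are not given, so the counts alone do not set the genes apart. Chil3 on ILMN_3043036 lost its call in 7 of the fits that left out 1 array. For castration, averaged over days 4 and 7, limma called 0 of 12, against 4.09% of all probes, with 2 at an unadjusted p under 0.05, and array weights, or leaving out TEC castrated day 4 array 1, gave 2.

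The levels of the fractions themselves were compared on unoperated arrays, with the limit that the fractions appear to have been normalized separately. All probes had a median difference of -0.29 between TEC and nonTEC, and 23.3% of them were called higher and 46.4% lower, so a call by itself sets no probe apart. Of 12 probes 2 were higher and 3 lower in TEC. Pglyrp1 on ILMN_2592486 was higher in TEC by 3.36 ± 0.22 (adjusted p = 6.08e-15) and Fcer1g by 0.94 ± 0.23 (adjusted p = 0.000522). Ngp was lower by -2.73 ± 0.42 (adjusted p = 8.83e-07), S100a9 by -1.28 ± 0.53 (adjusted p = 0.0316) and Chil3 on ILMN_3043036 by -0.95 ± 0.29 (adjusted p = 0.00391). On nonTEC middle-aged arrays 1 and 2, Ngp lay within its range on TEC arrays, 4.35 to 6.17. Without nonTEC middle-aged array 3 the Ngp difference was -2.10. With arrays centred on their median, S100a9 (-0.96, adjusted p = 0.109) and Chil3 (-0.62, adjusted p = 0.0511) both missed the threshold, as they did with array weights (adjusted p = 0.0960 and 0.0959). S100a9 also missed it after quantile normalization and without nonTEC middle-aged array 3 (-0.59, adjusted p = 0.228), TEC middle-aged array 2, nonTEC young array 1 or nonTEC young array 2. S100a8 did not pass (0.66 ± 0.48, adjusted p = 0.223), nor did Camp (-0.07 ± 0.57, adjusted p = 0.920). For both genes the TEC mean lay below the nonTEC mean in young mice and above it in middle-aged mice. These averages over both ages therefore do not show equal levels.

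The probes most like the 9 genes in pattern differed between the fractions. Over the 24 TEC arrays the mean of the 12 probes, each centred, went most closely with Kctd12 (r = 0.92), Dlk1 (r = 0.92), Chst1 (r = 0.91), Srgn (r = 0.91), Atp6v1c1 (r = 0.91), Snurf (r = 0.90), Dleu7 (r = 0.90) and Cd52 (r = 0.90). Srgn, the proteoglycan core of secretory granules, and Cd52, a leukocyte surface glycoprotein, are known from blood cells, and 0 of the 8 nearest probes in TEC were neutrophil granule genes. Over the 17 nonTEC arrays the mean of 13 probes went with Chil4 (r = 0.98), Mpo (r = 0.97 and 0.96 on 2 probes), Ifitm6 (r = 0.97), Lyz1 (r = 0.97), Ltf (r = 0.96), Fpr2 (r = 0.95) and Elane (r = 0.95). Mpo, Ltf and Elane are neutrophil granule genes, Fpr2 is a receptor for formylated peptides of phagocytes and Ifitm6 belongs to the interferon-induced membrane proteins. The Elane and Ltf probes named here had no full set of values in TEC and could not rank there. These correlations rest on arrays that share groups and days and are given as descriptions.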

How the data were processed

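RNA of sorted TEC and nonTEC was hybridised to Illumina arrays, per the labels' protocols, and the authors deposited a table of normalized log2 intensities. Its log base is not stated in the table and was taken as 2 from the range of values. Per the submitters' processing notes limma was used, for a purpose and in a version not stated there, and how the values were normalized is not known here. Array medians differ between the fractions (6.68 in TEC and 6.81 to 6.82 in nonTEC), so a separate normalization is assumed and levels across fractions are of limited use. The number of arrays limits the precision.

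Of 24671 rows, 20825 probes had 1 listed gene in the platform annotation, 11 had several and 3835 had none. Probes were fitted with limma 3.58.1 in R 4.3.3 as group means with a moderated variance trend (18245 probes in TEC, 18397 in nonTEC and 15817 on all 41 arrays), without a filter on low values. Benjamini-Hochberg adjustment ran over all probes of a fit, with a threshold of 0.05, in 14 comparisons. All probes of a gene are shown. The members and lists were chosen with earlier results of these data known. Beside the members, named genes are up to 3 called probes of smallest p per myeloid list and comparison, the 8 probes of most like pattern per fraction, and single markers set beside a member's result. Alternatives were a probe filter, 1 probe per gene, array weights, other sets of arrays, other controls, a replicate block and leaving out each array. The script was tested on simulated data with 200 changed probes: for TEC ageing it recovered 55% of changes of 1 and 89% of changes of 2 on the log2 scale. For the ageing difference between fractions it recovered 28% and 81%, the lowest shares among the 14 comparisons. Tables were handled in Python 3.11.15 with pandas 2.3.3.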

Additional observations from a re-analysis of the deposited data

Results flagged for a closer look

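The difference between middle-aged and young mice was not the same in the fractions for 3 probes, by the test of the difference itself in a limma fit of all 41 arrays. Chil3, the chitinase-like lectin, differed by 3.56 ± 0.85 on ILMN_2712986 and by 1.97 ± 0.57 on ILMN_3043036 (TEC minus nonTEC, adjusted p = 0.00886 and 0.0318). Pglyrp1, the peptidoglycan-binding protein, differed by 2.19 ± 0.45 on ILMN_2592486 (adjusted p = 0.00238).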

How the results depend on the processing

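The count of called probes of the 9 genes moved by over 1.5 times under these alternatives. The number of all probes called can change with the fit as well, as given below for TEC ageing. These counts alone therefore do not set the 9 genes apart. For ageing in TEC (4 called), array weights gave 8, the fit of only the groups compared 0, the fit of all arrays 1 and the fit without the 4 TEC arrays that stand apart 7. For TEC at day 4 (1), array weights gave 6 and sham arrays of all days 2. The filter on overall mean, only the groups compared and unoperated arrays as control gave 0. In the fit without the 4 arrays a single castrated array of day 4 is left, so its count is not given. For TEC at day 7 (0), sham arrays of all days gave 1. For TEC at day 20 after castration (6), array weights and only the groups compared gave 10 and the fit of all arrays 2. For sham surgery in TEC (2), the filter gave 1, the probe of highest mean per gene 0, array weights 4, only the groups compared 0 and the fit without the 4 arrays 6. For day 20 against earlier days (8), the probe of highest mean gave 5. In nonTEC, the filter left 4 probes to test and called 4 for ageing and for castrated against young mice (12 each), and array weights gave 1 for castration at day 4 (0). Between the fractions, array weights gave 7 and sham arrays as aged 10 for ageing (3), array weights 2 for castration (0), and the filter 3 for levels (5).

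Leaving out 1 array at a time gave 2 to 6 calls for TEC ageing, 7 to 12 for nonTEC ageing, 0 to 4 for TEC castration at day 4, 4 to 5 at day 20, 0 to 4 for TEC sham surgery, 6 to 9 for TEC day 20, 2 to 8 for the ageing difference, 0 to 2 for the castration difference and 4 to 7 for TEC against nonTEC. It gave 12 throughout for castrated against young nonTEC, and 0 throughout for TEC castration at day 7 and for castration at both days and sham surgery in nonTEC. Direction reversed for Prg2 in TEC at day 4 (0.073 with unoperated arrays as control) and for Cxcl2 at day 20 (-0.46 with unoperated arrays and -0.48 with sham arrays of all days as control). The cause of these changes was not tested, other than fewer arrays or probes where the alternative removes them. Over all probes, 1717 were called for TEC ageing, against 5 in the fit of only the groups compared and 5480 with array weights. A replicate block gave the same counts as without it in the 14 comparisons (4 for TEC ageing, 12 for nonTEC ageing and 6 for TEC at day 20). Arrays of the same number deviated together (every r above 0.1) in 2 of 28 pairs of groups in TEC and 1 of 15 in nonTEC, so the numbers were not taken as pairing.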
